A study of Mus musculus with 16 samples.

Results

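The MHC class II antigen presentation genes examined here were H2-Aa, H2-Ab1, H2-Eb1, H2-DMa, H2-DMb1, Cd74, Ciita and Cd86. Every probe that the array table lists under these 8 symbols was taken, which gave 13 of the 25697 probes on the array, each of 50 bases. H2-Ab1 and Cd86 had 3 probes each, Cd74 had 2 and the other genes had 1 each. The array table names 18117 genes. All 13 probes passed the detection filter, which asks for a detection p below 0.05 on 3 arrays or more and kept 14763 probes.

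The arrays measured total RNA from whole hamstring muscle of female mice, taken 2 days after surgery. The 4 groups had 4 arrays each: SCI+CDTX, a spinal cord injury between vertebrae T12 and T13 with cardiotoxin, which lyses muscle fibres and comes from cobra venom, injected into the muscle; SCI+Saline, the cord injury with saline injected instead; Sham+CDTX, sham surgery with cardiotoxin; and Sham+Saline, sham surgery with saline. The study asked which genes promote neurogenic heterotopic ossification, bone that forms in muscle after cord injury, and per its design text this occurs only in SCI+CDTX. The labels give no strain, age or genotype, every mouse had surgery or sham surgery and an injection, and no uninjected muscle was analysed here. SCI+CDTX replicate 2 was left out of the final analysis by the submitters and is left out of the main comparisons here. Both cord injury groups were hybridised on slide 1 and both sham groups on slide 2, so the slide and the surgery cannot be told apart. Each cardiotoxin comparison lies within a slide. On both slides the array names end in A to D for cardiotoxin and in E to H for saline. The injection therefore cannot be told apart from this order. Nothing in the labels says that the arrays of a group came from separate mice, so p-values measure the spread between these samples.

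Class II molecules present peptides from endosomes to CD4+ T cells and are made mainly by dendritic cells, B cells and activated macrophages. Their alpha and beta chains assemble on the invariant chain Cd74, whose remnant is exchanged for peptide by H2-DM. The transactivator Ciita, which interferon gamma induces, switches the genes on through factors bound at the X and Y boxes of their promoters, and Cd86 gives the costimulatory signal that T cells need beside the peptide.

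Promoter sequence is shown for 3 class II genes whose probes all rose with cardiotoxin under both surgeries and whose windows held the Y box core. RefSeq windows of GRCm38.p6 matched 4 of the 8 genes by symbol, H2-Aa, H2-Eb1, H2-DMb1 and H2-DMa; H2-Ab1, Cd74, Ciita and Cd86 were not matched. The 150 bases upstream of the start are written 5' to 3' on the gene's strand, with capitals for matches on either strand to the Y box core TGATTGG, the X box letters AACTGATG and the X2 letters TGACGTCA.
H2-Aa, chr17:34287824-34287973, minus strand: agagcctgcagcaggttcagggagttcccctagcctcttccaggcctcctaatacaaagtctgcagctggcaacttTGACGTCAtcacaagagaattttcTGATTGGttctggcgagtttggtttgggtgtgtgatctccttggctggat
H2-Eb1, chr17:34305717-34305866, plus strand: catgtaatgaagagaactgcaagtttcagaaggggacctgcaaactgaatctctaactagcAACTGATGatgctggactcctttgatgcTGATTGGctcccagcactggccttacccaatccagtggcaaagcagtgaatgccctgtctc
H2-DMb1, chr17:34153041-34153190, plus strand: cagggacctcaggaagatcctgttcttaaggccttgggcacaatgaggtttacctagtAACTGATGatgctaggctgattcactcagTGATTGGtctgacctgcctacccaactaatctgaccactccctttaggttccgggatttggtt
The Y box core was found in all 3, 50 bases before the start in H2-Aa, 61 in H2-Eb1 and 63 in H2-DMb1. X box letters lay 20 bases upstream of the Y box core in H2-Eb1 and 21 in H2-DMb1. H2-Aa held no such match and carried the X2 letters. Over the 250 bases upstream of all 32851 windows, 7.23% held the Y box core, 0.676% the X box letters and 1.55% the X2 letters, and 24 windows held both X box letters and Y box core. The H2-DMa windows held none of these letters. These matches are descriptions of letters and not of binding.

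The H2-Ab1 transcript is shown at 2 of its 3 probes, since these gave a different size of change from the probe nearest the 3' end (at transcript position 898, not printed). They lie at positions 180 and 732 of the transcript listed for them.
ILMN_2631423: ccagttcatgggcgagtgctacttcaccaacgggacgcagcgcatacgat
ILMN_2913716: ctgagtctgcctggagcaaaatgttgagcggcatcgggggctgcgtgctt
Cd86 probes ILMN_2743244 and ILMN_1217041 share 49 of their 50 bases and are not independent measurements, while ILMN_1216386 lies near the 5' end of the transcript, at position 30.

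The array's annotation places the H2 genes on chromosome 17, Ciita and Cd86 on chromosome 16 and Cd74 on chromosome 18, with no genome build named. The H2 genes lie within the major histocompatibility complex.

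Cardiotoxin raised all 13 probes in both surgery backgrounds. Between SCI+CDTX and SCI+Saline 13 of 13 probes were higher at an adjusted p under 0.05 (limma, Benjamini-Hochberg over all kept probes), where 42.9% of all probes were called and 20.4% were called higher. Between Sham+CDTX and Sham+Saline 13 of 13 were higher, where 48.9% of all probes were called and 23.1% were called higher. Ciita was detected on no saline array and Cd86 ILMN_1216386 on 1, so both passed the detection filter through the cardiotoxin arrays. For these probes a higher call was therefore favoured in advance, though both were also called without the filter. The groups did not overlap for any of the 13 probes in either comparison; non-overlapping groups were seen for 45.9% and 45% of all probes. The median log2 change of the 13 probes was 1.50 after cord injury and 1.80 after sham surgery, against -0.05 and -0.04 over all probes. In bulk tissue fewer cells of a type and less RNA per cell cannot be told apart.

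**Figure D1:**
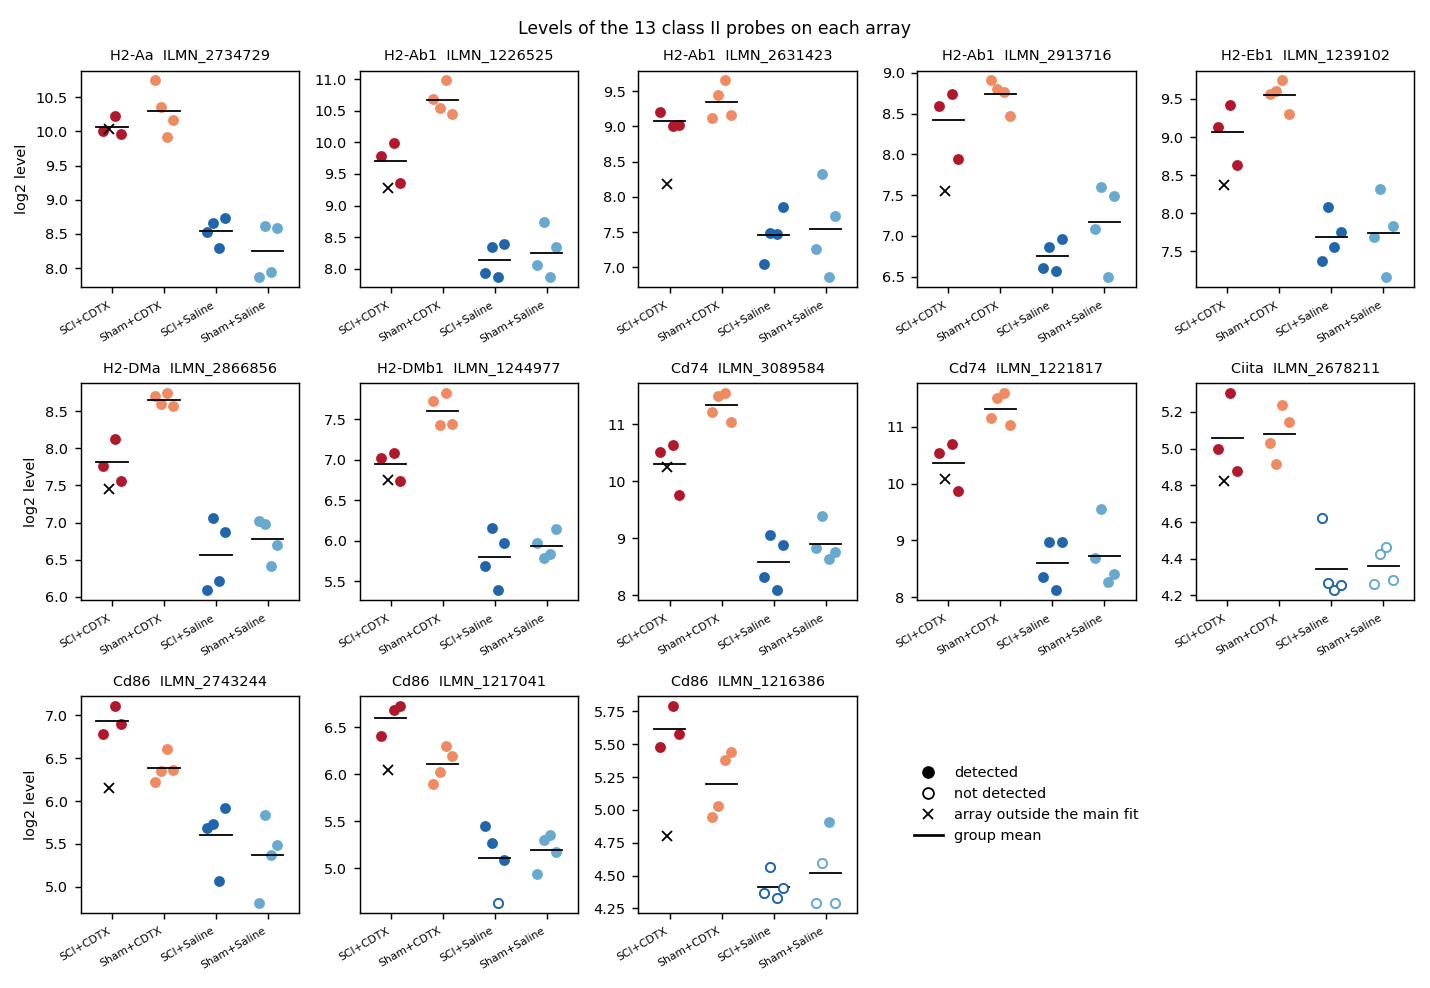
Normalised log2 level of each of the 13 probes (y axis, own scale per panel) on every array of the 4 groups (x axis). Points are arrays, open where the probe was not detected, bars are group means over the arrays in the main fit, and crosses are SCI+CDTX replicate 2, from a normalization of all 16 arrays. The points of both cardiotoxin groups sit above those of both saline groups in every panel, the crosses reach down among the saline points for Cd86 ILMN_1216386 and for H2-Ab1 ILMN_2631423 and ILMN_2913716, and for Cd74, H2-DMa, H2-DMb1 and H2-Ab1 probe ILMN_1226525 the SCI+CDTX points sit below the Sham+CDTX points.

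Cd74, the invariant chain, changed most in sham muscle. On probe ILMN_3089584 its log2 levels were 8.83, 9.39, 8.63 and 8.76 in Sham+Saline and 11.23, 11.51, 11.54 and 11.05 in Sham+CDTX. After cord injury they were 8.33, 9.05, 8.09 and 8.88 with saline and 10.51, 10.64 and 9.76 with cardiotoxin. The saline arrays of both surgeries shared 1 range, and every cardiotoxin array lay above it. Cardiotoxin raised Cd74 by 2.43 ± 0.23 (SE) on the log2 scale after sham surgery, a 5.39-fold rise, and by 1.72 ± 0.25 after cord injury, a 3.29-fold rise. The other Cd74 probe, ILMN_1221817, gave 2.60 and 1.77.

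H2-Aa encodes the alpha chain of the I-A molecule. Its log2 levels on ILMN_2734729 were 7.87, 8.62, 7.94 and 8.58 in Sham+Saline, 8.52, 8.65, 8.29 and 8.73 in SCI+Saline, 10.75, 10.36, 9.92 and 10.16 in Sham+CDTX, and 10.00, 10.23 and 9.97 in SCI+CDTX. The 2 cardiotoxin groups overlapped each other and did not overlap the saline groups. The rise with cardiotoxin was 4.13-fold after sham surgery and 2.86-fold after cord injury.

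H2-Ab1 encodes the beta chain that pairs with H2-Aa. Probe ILMN_1226525 read 8.06, 8.74, 7.87 and 8.35 in Sham+Saline, 7.94, 8.35, 7.87 and 8.39 in SCI+Saline, 10.68, 10.55, 10.98 and 10.44 in Sham+CDTX, and 9.78, 9.98 and 9.35 in SCI+CDTX. On this probe all Sham+CDTX arrays lay above all SCI+CDTX arrays. The other probes, ILMN_2631423 and ILMN_2913716, overlapped between those groups, at 9.12 to 9.65 against 9.01 to 9.20 and at 8.47 to 8.91 against 7.94 to 8.74. Cardiotoxin raised the 3 probes by 2.41, 1.80 and 1.57 on the log2 scale after sham surgery and by 1.57, 1.61 and 1.67 after cord injury, in the order ILMN_1226525, ILMN_2631423, ILMN_2913716.

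H2-Eb1, the beta chain of the I-E molecule, rose by 1.81 ± 0.22 (SE) after sham surgery and by 1.37 ± 0.24 after cord injury. Its log2 levels ran from 9.31 to 9.74 in Sham+CDTX, from 8.63 to 9.42 in SCI+CDTX, from 7.38 to 8.08 in SCI+Saline and from 7.16 to 8.31 in Sham+Saline.

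The peptide exchange factor H2-DM is built from H2-DMa and H2-DMb1. H2-DMa read 7.02, 6.98, 6.42 and 6.70 in Sham+Saline, 6.09, 7.06, 6.21 and 6.87 in SCI+Saline, 8.71, 8.60, 8.74 and 8.57 in Sham+CDTX, and 7.76, 8.13 and 7.55 in SCI+CDTX. The 4 Sham+CDTX arrays agreed to 0.08 (SD) and stood apart from all others. H2-DMb1 ran from 7.43 to 7.82 in Sham+CDTX, from 6.74 to 7.08 in SCI+CDTX, from 5.39 to 6.16 in SCI+Saline and from 5.79 to 6.15 in Sham+Saline. Cardiotoxin raised H2-DMa by 1.88 after sham surgery and 1.26 after cord injury, and H2-DMb1 by 1.67 and 1.14.

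Ciita, the transactivator, was dim. It was detected on all 8 cardiotoxin arrays and on none of the 8 saline arrays, so saline levels are bounds only. Its log2 levels were 5.03, 4.92, 5.24 and 5.14 in Sham+CDTX and 5.00, 5.30 and 4.88 in SCI+CDTX, and these ranges overlapped. Against saline Ciita was at least 1.23-fold higher after sham surgery (measured log2 means 5.08 and 4.36, adjusted p = 0.00026) and at least 1.29-fold higher after cord injury (5.06 and 4.34, adjusted p = 0.00081). These bounds set the mean of the brighter group against the mean, over arrays of the dimmer group, of the lowest signal among detected probes or the probe itself, whichever was higher.

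Cd86, the costimulatory ligand of CD28 and CTLA4, had its highest group means in SCI+CDTX. On ILMN_2743244 its log2 levels were 4.81, 5.84, 5.37 and 5.48 in Sham+Saline, 5.69, 5.73, 5.06 and 5.92 in SCI+Saline, 6.22, 6.36, 6.61 and 6.36 in Sham+CDTX, and 6.78, 7.11 and 6.90 in SCI+CDTX. All 3 SCI+CDTX arrays of the main comparison lay above all Sham+CDTX arrays. Probe ILMN_1217041 ran from 6.41 to 6.73 in SCI+CDTX against 5.90 to 6.30 in Sham+CDTX, and ILMN_1216386 from 5.48 to 5.79 against 4.94 to 5.44. ILMN_1216386 was not detected on any SCI+Saline array and on 1 Sham+Saline array only, and it was at least 1.89-fold higher with cardiotoxin after cord injury (measured log2 means 5.61 and 4.42). Cardiotoxin raised Cd86 by 1.33 and 1.50 on the overlapping probes after cord injury and by 1.01 and 0.92 after sham surgery.

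**Figure D2:**
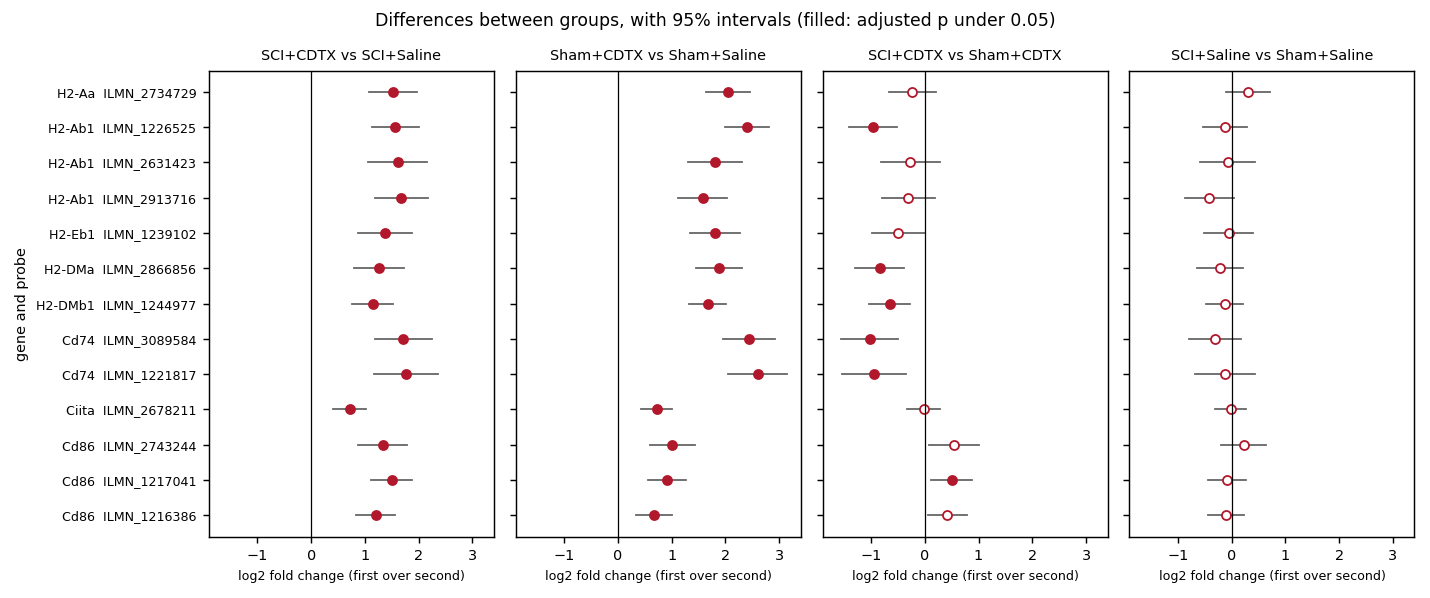
Log2 fold change of each of the 13 probes (points, x axis; probes on the y axis) with 95% intervals in 4 comparisons, filled where the adjusted p was under 0.05. All 13 points are filled and above 0 in both cardiotoxin comparisons, 6 are filled between SCI+CDTX and Sham+CDTX, and none between the saline groups.

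Setting SCI+CDTX against Sham+CDTX compares the surgeries in muscle damaged by cardiotoxin, where the slide differs as well. Here 6 of 13 probes were called, 5 lower and 1 higher with cord injury, where 29.8% of all probes were called, 14.9% lower and 14.9% higher. The lower probes were both of Cd74 and those of H2-DMa, H2-DMb1 and H2-Ab1 (ILMN_1226525), and the higher probe was Cd86 ILMN_1217041. The median over the 13 was -0.31, against 0.01 over all probes. Groups did not overlap for 8 of the 13 probes and for 42.6% of all probes.

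Cd74 was 2.04-fold lower on ILMN_3089584 (log2 change -1.03, 95% interval -1.55 to -0.50, adjusted p = 0.0042) and 1.94-fold lower on ILMN_1221817 (adjusted p = 0.016). H2-Ab1 was 1.94-fold lower on ILMN_1226525 (log2 change -0.96, 95% interval -1.40 to -0.51, adjusted p = 0.0022). On its other probes the changes were -0.27 (95% interval -0.82 to 0.28) and -0.31 (-0.80 to 0.18), which did not pass the test. H2-DMa was 1.79-fold lower (-0.84, adjusted p = 0.0070) and H2-DMb1 1.57-fold lower (-0.66, adjusted p = 0.0096). H2-Eb1 at -0.49 (95% interval -0.99 to 0.00), H2-Aa at -0.23 (-0.68 to 0.21) and Ciita at -0.02 (-0.34 to 0.29) did not pass.

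Cd86 differed by 0.50 on the log2 scale on ILMN_1217041 (1.41-fold higher, adjusted p = 0.045), by 0.54 on ILMN_2743244 (adjusted p = 0.071) and by 0.42 on ILMN_1216386 (adjusted p = 0.078). With SCI+CDTX replicate 2 included, that array read 6.15 on ILMN_2743244, below all Sham+CDTX arrays, and the 3 differences became 0.35, 0.34 and 0.21 with none called. On Cd74 ILMN_3089584 the same array read 10.25, within the range of its group, and on the 3 H2-Ab1 probes 9.28, 8.18 and 7.55, below it; the 5 class II calls held with it. Without SCI+CDTX replicate 4, the array with the lowest Cd74, 2 of the 13 probes were called, Cd74 ILMN_3089584 and H2-Ab1 ILMN_1226525, at -0.76 and -0.78.

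Cd86 and the class II genes were also set against each other on the same array, over 4 probe pairs. The log2 level of Cd86 ILMN_2743244 minus that of Cd74 ILMN_3089584 averaged -3.37 in SCI+CDTX and -4.94 in Sham+CDTX, a difference of 1.57 with no overlap. Cd86 minus H2-Ab1 ILMN_1226525 differed by 1.50, also with no overlap. H2-Aa minus Cd74 differed by 0.80 with overlapping groups, and H2-Ab1 ILMN_1226525 minus H2-Aa by -0.73 with no overlap. The 4 pairs were chosen with the levels of these genes known. A permutation test run on them is therefore not used, and these values are descriptions. With all 16 arrays both Cd86 pairs kept groups that did not overlap, at 1.38 and 1.41.

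**Figure D3:**
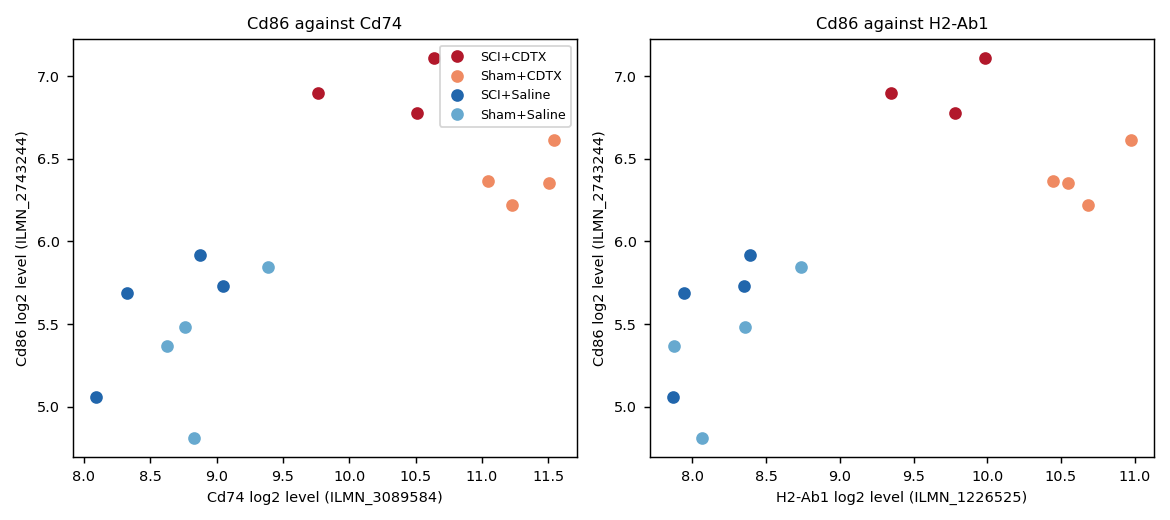
Log2 level of Cd86 (y axis, ILMN_2743244) against Cd74 (left x axis) and H2-Ab1 (right x axis) on the 15 arrays of the main fit, coloured by group. The SCI+CDTX arrays lie above and to the left of the Sham+CDTX arrays in both panels, and the saline arrays lie together at the lower left.

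Without cardiotoxin no change was called between the surgeries. Between SCI+Saline and Sham+Saline 0 of 13 probes were called, where 29.5% of all probes were called, and the log2 changes ran from -0.41 (H2-Ab1 ILMN_2913716, 95% interval -0.87 to 0.04) to 0.30 (H2-Aa, -0.11 to 0.71). All 13 probes overlapped between these groups, and 23.5% of all probes did not. The lowest adjusted p was 0.17 (limma), and 0 of the 13 had an unadjusted p under 0.05. H2-Aa was called under median scaling at 0.81, a scaling that moves the median of all probes by 0.17 in this comparison, and H2-Ab1 ILMN_2913716 at -0.64 without Sham+Saline replicate 3.

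SCI+CDTX against Sham+Saline, the group with neither treatment, had 13 of 13 probes called higher (46.5% of all probes called, 23% higher), with log2 changes from 1.01 for H2-DMb1 to 1.82 for H2-Aa over the probes other than that of Ciita. Ciita was at least 1.21-fold higher. The limit from the detection filter given above for Ciita and Cd86 ILMN_1216386 holds here too. This comparison shares its arrays with those above.

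The interaction, which tests whether the cardiotoxin effect differs between the surgeries, was called for 1 of 13 probes (23.6% of all probes, 11.6% lower). H2-Ab1 ILMN_1226525 gained less with cardiotoxin after cord injury, by -0.84 (SE 0.29, adjusted p = 0.043), and this call was lost in 13 of 25 alternatives. Cd74 had -0.71 and -0.83 (adjusted p = 0.14 and 0.13), and the Cd86 probes ran from 0.32 to 0.58 (adjusted p from 0.097 to 0.49).

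Other genes of the class II pathway were followed over a list of 20, of which 16 had a kept probe; H2-Oa, Rfx5 and Rfxank had none and Icosl is not on the array table. Between SCI+CDTX and Sham+CDTX 0 rose and 3 fell, with a list median of -0.07, where 29.8% of all probes were called and 14.9% were called lower. They were Ctss, the protease that trims the invariant chain (-1.25, adjusted p = 0.019), Marchf1, a ubiquitin ligase that removes class II from the surface (-0.73, adjusted p = 0.0025), and Cd83, which opposes that removal (-0.69, adjusted p = 0.0028). With a covariate described below, Ctss turned to 0.23 and was not called. After cord injury 9 rose and 3 fell with cardiotoxin (list median 0.46; 42.9% of all probes called), among them the endosomal protease Lgmn (2.67), Ctss (2.07), the RFX subunit Rfxap (-1.03) and Ctsl (-0.81). After sham surgery 7 rose and 3 fell (list median 0.22; 48.9% of all probes called), with Ctss at 4.75, Lgmn at 3.29, Rfxap at -0.62 and the Y box factor subunit Nfyb at -0.57. Under median scaling, which moves the median of all probes by 0.32 there, Rfxap was at 0.17 and Nfyb at 0.22, neither called. In SCI+Saline against Sham+Saline 3 of the 16 were called higher and 1 lower, where 29.5% of all probes were called. Ctss was at 1.43, the thiol reductase Ifi30 at 1.24 and Nfyc at -0.52. The interaction was called for 4 of the 16 genes, all lower, where 23.6% of all probes were called. Ctss had -2.68 and Ifi30 -1.01. The other genes were Marchf1, detected on 1 of the 8 saline arrays, and Cd83, detected on 2 of the 8, so no size is given for them.

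Of 11 interferon gamma axis genes 10 were kept, and Ifng itself was detected on 0 arrays. Between SCI+CDTX and Sham+CDTX the receptor chain Ifngr1 rose (0.62, adjusted p = 0.016) and none fell, where 29.8% of all probes were called; with the covariate Ifngr1 was at -0.32. Cardiotoxin raised 5 and lowered 2 after cord injury (42.9% of all probes called) and raised 5 and lowered 0 after sham surgery (48.9%). The transcription factor Irf8 rose by 1.42 and 2.56. The interleukin 10 receptor chain Il10ra rose by 2.02 after cord injury, where 2 of the 4 saline arrays detected it. It was at least 5.51-fold higher after sham surgery, where no saline array detected it (measured log2 means 7.24 and 4.61, adjusted p = 4.9e-08). The lowered genes after cord injury were the kinase Jak1 (-0.70) and the receptor chain Ifngr2 (-0.53), and neither was called under median scaling. Of 15 class I pathway genes 13 were kept. In SCI+CDTX against Sham+CDTX 1 rose and 3 fell, 4 of 13 where 29.8% of all probes were called: the peptide transporter chain Tap2 (1.22), the chaperones Calr (-2.62) and Pdia3 (-0.76) and B2m (-0.67), the light chain of class I. Tap2 and Calr turned to -0.67 and 0.24 with the covariate.

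The genes most like the class II genes in pattern were sought as those whose centred log2 levels over 15 arrays had the smallest root mean square distance from the mean of H2-Aa, H2-Ab1, H2-Eb1 and Cd74. That mean pattern itself had a root mean square of 1.01, and 10944 genes were compared. The nearest 8 were Cd83 (0.208), LOC641240 (0.214), Ly6e (0.227), Ly9 (0.236), Mpp1 (0.247), Rps6ka4 (0.253), Cxcl16 (0.254) and Samhd1 (0.258). Cd83 marks mature dendritic cells, Ly9 is a SLAM family receptor of lymphocytes, and Cxcl16 is a membrane-bound chemokine. H2-Aa itself lay at 0.290 from that mean and H2-Ab1 ILMN_1226525 at 0.146.

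Markers of other cell types also differed between the groups. Of 12 monocyte and macrophage markers 10 were kept. On the log2 scale their mean was 8.28 to 8.84 in SCI+CDTX and 8.40 to 8.53 in Sham+CDTX. It was 5.96 to 7.18 in SCI+Saline and 6.02 to 6.45 in Sham+Saline. The mean thus overlapped between the cardiotoxin groups and lay above the saline groups. Single markers differed in both directions, with 3 of the 10 called higher and 2 lower in SCI+CDTX against Sham+CDTX (29.8% of all probes called). Cd163 had means of 9.55 and 7.80 and Cd14 8.88 and 7.03 in these groups. Mrc1 had 9.91 and 10.93 and Mertk 5.96 and 6.86. The 5 of 11 dendritic cell markers that were kept averaged at most 6.39 in SCI+CDTX (median 6.19) and at least 6.62 in Sham+CDTX (median 6.75), with no overlap, and 5.27 to 5.71 in the saline groups. Flt3 was detected on 0 arrays, and Itgax, Xcr1 and Clec9a on 1 each. Of the 5 kept dendritic markers 1 was called higher and 2 lower in SCI+CDTX against Sham+CDTX, where 29.8% of all probes were called. Fscn1 differed by far the most (-2.32), with means of 7.65 in SCI+CDTX and 9.97 in Sham+CDTX, and Clec10a went the other way (0.71). Batf3 had means of 5.14 and 5.46 and Siglech 4.79 and 5.00 in these groups. Cd209a was detected on 0 of the 4 SCI+CDTX arrays and on 4 of the 4 Sham+CDTX arrays. It passed the detection filter only through Sham+CDTX, so a lower level in SCI+CDTX was favoured in advance. B cell markers rested on 4 of 12 genes, at 5.02 to 5.48 in SCI+CDTX and 4.64 to 4.87 in Sham+CDTX, with Pax5 detected on 0 arrays and Ms4a1 on 1. T cell markers (7 of 10) averaged 5.31 to 5.72 and 4.97 to 5.20 in these groups. Of these 7 markers 5 were called higher and 1 lower in SCI+CDTX, where 29.8% of all probes were called. Cd3e, Cd3d and Cd3g were detected on 4 SCI+CDTX arrays and 1 Sham+CDTX array, and Cd2 on 4 and 0. These markers passed the detection filter only through SCI+CDTX, so higher calls were favoured in advance and the count is a description. In the normalization of all 16 arrays SCI+CDTX replicate 2 read 5.16 for this list, within the Sham+CDTX range of 4.99 to 5.22. Neutrophil markers (6 of 8) averaged 7.24 to 7.67 in SCI+CDTX and 5.51 to 6.13 in Sham+CDTX with no overlap, though 0 of the 6 were called in that comparison (limma; 3 had an unadjusted p under 0.05, all higher). With saline 1 array of each surgery stood apart on this list, at 9.44 in SCI+Saline replicate 4 and 9.75 in Sham+Saline replicate 4, where the other saline arrays had 4.69 to 6.42. The part of these cells in the class II values was not tested.

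**Figure D4:**
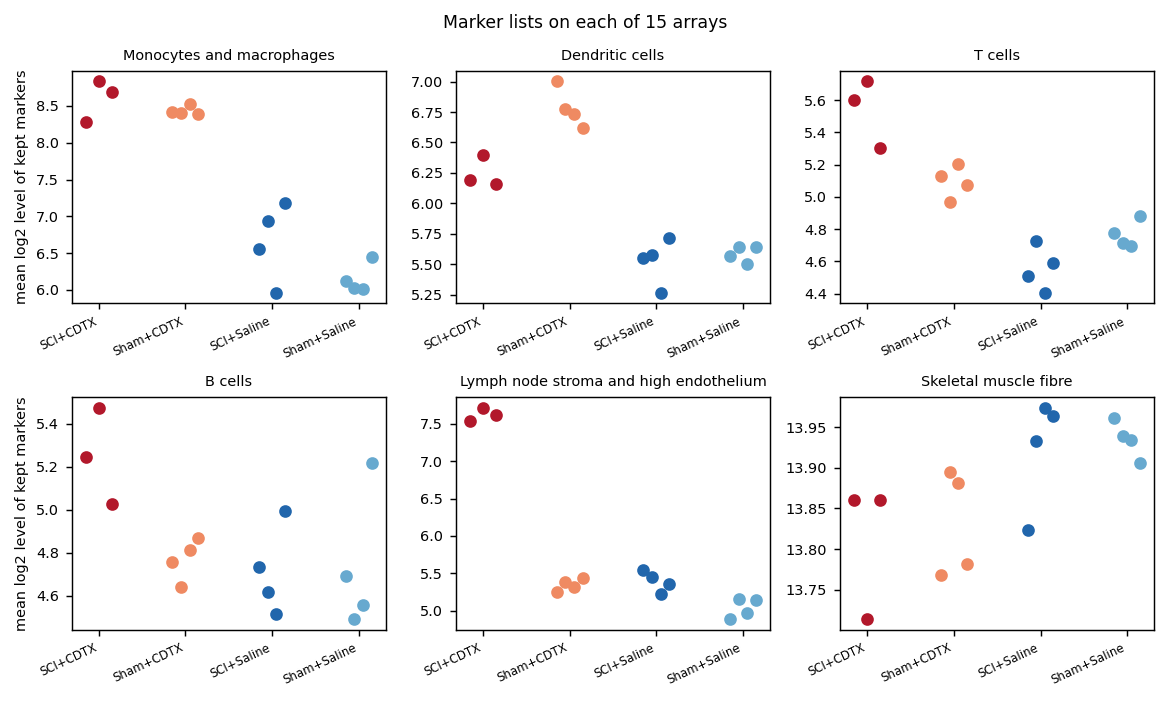
Mean log2 level of the kept markers of 6 lists (y axis, own scale per panel) on each of the 15 arrays, by group (x axis). The mean of the macrophage markers overlaps between the cardiotoxin groups, though single markers differ in both directions. The mean of the dendritic markers lies higher in Sham+CDTX, where Fscn1 is the marker that differs most. Lymph node markers lie between 7.54 and 7.72 in SCI+CDTX against at most 5.54 elsewhere.

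SCI+CDTX arrays also carried lymph node markers. Of 6 genes of lymph node stroma and high endothelium 5 were kept, and they averaged 7.54 to 7.72 there against 4.89 to 5.54 on all other arrays of the main fit. Glycam1, a ligand made by high endothelial venules, was not detected in either sham group, and SCI+CDTX replicate 2 read 7.50 for the list. Lymph nodes hold cells that make class II and Cd86. The part of this tissue in the class II and Cd86 differences was not tested. The 8 muscle fibre markers were kept in full and averaged 13.71 to 13.97 on every array. Mb, the dimmest of them in each group, averaged 12.06 in SCI+CDTX, 12.78 in Sham+CDTX, 13.35 in SCI+Saline and 13.53 in Sham+Saline. The list mean is therefore no measure of fibre content, which was not tested.

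Probes of the same gene disagreed on some arrays. A score built from the difference between the 2 brightest probes of 2782 genes separated the 4 Sham+CDTX arrays (0.347 to 0.391) and SCI+CDTX replicate 2 (0.280) from the other 11 arrays (-0.266 to -0.067). The score thus runs almost with the groups compared. With it as a covariate over 16 arrays, 0 of the 13 probes were called between SCI+CDTX and Sham+CDTX, and 262 of all 14763 probes; 8 of the 13 had an unadjusted p under 0.05, those of Cd74, H2-Ab1, H2-Eb1, H2-DMa and H2-DMb1. The class II estimates stayed negative, from -0.26 for H2-Aa to -1.36 for H2-Ab1 ILMN_2631423, and Cd74 was at -0.87 and -1.15 (adjusted p = 0.33 and 0.26). The 3 H2-Ab1 probes then gave -1.33, -1.36 and -1.23, closer together than the -0.96, -0.27 and -0.31 without the score. The score was built from differences between probes of the same gene, with H2-Ab1 among the genes. Such closeness was therefore favoured in advance and is a description only. The Cd86 probes gave -0.07, 0.14 and -0.32. The part of this difference between probes in the surgery comparison was not tested. Cardiotoxin calls held for 13 of 13 probes after cord injury and 11 of 13 after sham surgery, where Ciita and Cd86 ILMN_1217041 missed the threshold.

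**Figure D5:**
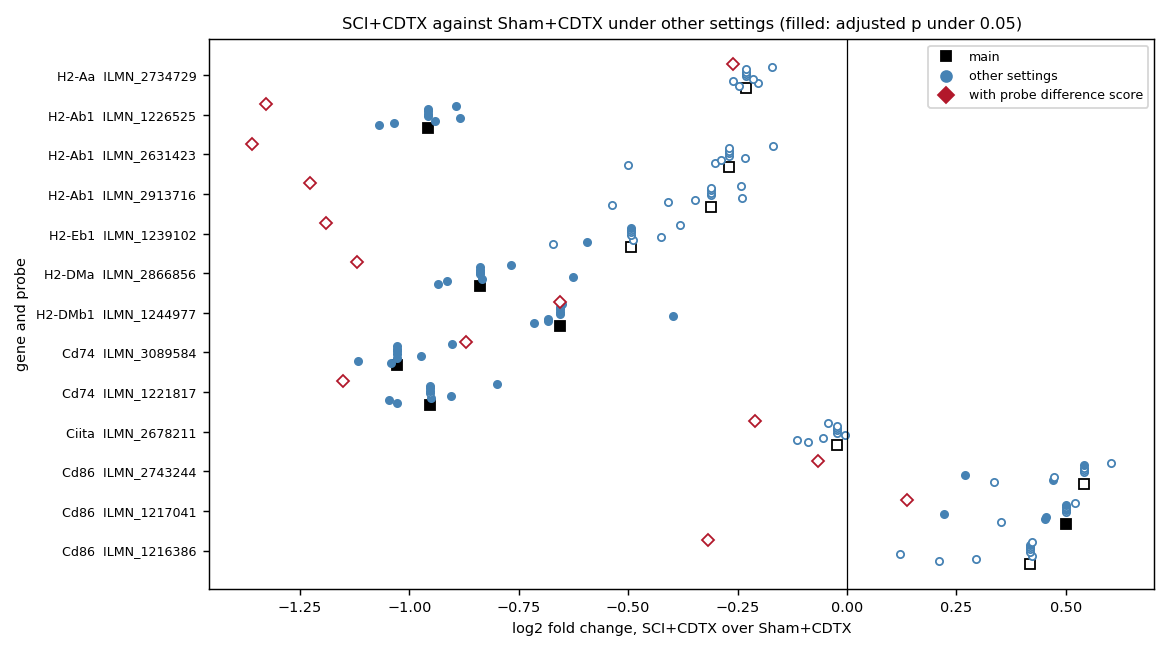
Log2 fold change of SCI+CDTX over Sham+CDTX (x axis) for each of the 13 probes (y axis) in the main fit (squares), other processing settings (circles) and with the probe difference score as a covariate (diamonds), filled where the adjusted p was under 0.05. No diamond is filled, the class II diamonds lie below 0, and the squares and circles of Cd74, H2-DMa and H2-DMb1 are filled except for Cd74 ILMN_1221817 without the detection filter.

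The authors' deposited table gives group averages and p-values for SCI+CDTX against each other group. All 13 probes of the authors' deposited table had p under 0.05 against SCI+Saline (18.8% of all probes), 13 against Sham+Saline (24.4%) and 7 against Sham+CDTX (16.3%). The authors' deposited table lists Cd74 ILMN_3089584 at 1302.7 in SCI+CDTX, 2488.9 in Sham+CDTX, 354.2 in SCI+Saline and 408.6 in Sham+Saline.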

How the data were processed

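Total RNA from 16 muscle samples was measured on Illumina mouse arrays. Per the file headers, the authors exported scanner intensity, detection p-value and bead number per probe with GSGX 1.9.0, and the submitters' processing notes name GenomeStudio 2011.1. A deposited table of the authors holds group signal averages and p-values, whose normalization is not given in the sources used here. Intensities were background-corrected with normexp from the detection p-values (neqc, offset 16), quantile normalized and put on the log2 scale with limma 3.58.1 in R 4.3.3; the deposited intensity values carry no log2 transform. Probes with detection p under 0.05 on 3 or more arrays were kept. One model of the 4 group means over 15 arrays was fitted, with Benjamini-Hochberg adjustment over 14763 probes in each comparison and a threshold of 0.05. Levels of different probes were set against each other to choose the brightest probes of a gene and to describe Ciita as dim and Mb as dimmest. They were not read as relative amounts of RNA. Differences between 2 probes on an array were compared between groups.

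Mean intensity per array was 230.5 to 277.0 in Sham+Saline and 319.9 to 373.1 in the other groups, with 11114 to 13694 probes detected; 4 arrays per group limit the precision. No arrays were identical (highest correlation 0.994). SCI+CDTX replicate 2 had a median correlation of 0.963 with the other SCI+CDTX arrays and 0.977 with the Sham+CDTX arrays. On simulated data for SCI+CDTX against Sham+CDTX (14763 probes) the test recovered 12% of changes of 0.5, 76% of 1 and 98% of 1.5 and of 2 on the log2 scale. Only 50 probes of each size were changed there, while 4393 probes were called in the data. The adjusted threshold was thus stricter in the simulation, and these shares do not give the recovery in the comparison reported. The members, gene lists, marker lists and probe difference score were chosen with earlier results of these data known, and the promoter motif letters with the promoters in view. Members were named in full; of each pathway list the text names, in the comparisons it describes for that list, the called genes with the largest changes, up to 2 in each direction. The interferon list is described for 3 comparisons and the class I list for 1. Cd83, B2m, Marchf1 in the interaction and single marker genes, beyond that rule, were chosen after their values were seen. Alternatives were all 16 arrays, array weights, other normalization, background and filters, a trended variance, the compared groups alone, a replicate block, the score and each array left out.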

Additional observations from a re-analysis of the deposited data

Results flagged for a closer look

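In 52 groups of 4 arrays (13 probes in 4 groups), 2 had an array far from the other 3; chance gives about 1 in 20. H2-Aa in SCI+CDTX replicate 3 read 10.26 against 10.00 to 10.03, with a gap of 0.874 of the group's range. Ciita in SCI+Saline replicate 1 read 4.62 against 4.23 to 4.27 (0.907 of the range), where the probe was not detected. The cardiotoxin effect on H2-Ab1 ILMN_1226525 differed between the surgeries by -0.84 on the log2 scale in the interaction test, while its other probes had -0.19 and 0.10.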

How the results depend on the processing

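All 13 probes stayed called higher with cardiotoxin after cord injury, and in SCI+CDTX against Sham+Saline, under every alternative run; after sham surgery the exception was the score, with 11. SCI+CDTX against Sham+CDTX gave 5 to 9 called probes over the other full-array alternatives except without the detection filter (4) and with the score (0); leaving out 1 array gave 2 to 7. SCI+Saline against Sham+Saline gave 1 under median scaling and 0 to 1 with an array left out. The interaction gave 7 under median scaling, 4 without background correction, 0 with slides normalized separately, without the filter and with the score, and 0 to 2 with an array left out. Over all probes, calls between SCI+CDTX and Sham+CDTX went from 4393 to 2613 with 16 arrays and 262 with the score, those after sham surgery with cardiotoxin from 7219 to 3094 with the score, and the interaction from 3483 to 1532 and 43. Signs turned under median scaling for Tap2 (0.30), Rfxap (0.17) and Nfyb (0.22) in Sham+CDTX against Sham+Saline and for Rfxap (0.0025) and Jak2 (0.26) in SCI+CDTX against Sham+Saline. With the score they turned for Tap2 (-0.67), Calr (0.24), Ctss (0.23) and Ifngr1 (-0.32) in SCI+CDTX against Sham+CDTX, for Calr (-0.84) and Tap2 (1.86) with cardiotoxin after sham surgery, and for Tap2 (-0.34), Psmb10 (-0.90), Calr (0.74) and Jak1 (1.30) in the interaction. The cause was not tested. Signal near background limits Ciita and Cd86 ILMN_1216386. Slide as a block was not run: it leaves comparisons within a slide as they are and could not be fitted for surgery.

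The replicate numbers of the labels do not pair the arrays (21 same-number pairs, correlation -0.27 to 0.38, median -0.02). With the replicate block 5 of 13 probes were called for surgery with cardiotoxin, 0 for the interaction and 13 for cardiotoxin under each surgery.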
